A study of Mus musculus with 4 samples.

Results

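The Hox genes are described here across clusters of mouse bone marrow nuclei, together with the open chromatin of the 4 chromosomal clusters in which they lie. Members were chosen by name and position, not by a measured value. All gene rows named Hox with a letter from a to d and a paralogue number were taken, which gave 39 of 32272 gene rows, with 11 in HoxA, 10 in HoxB, 9 in HoxC and 9 in HoxD. All peaks inside the span of each cluster or within 20 kb of it were also taken, which gave 126 of 174339 peaks, with 27 at HoxA, 44 at HoxB, 28 at HoxC and 27 at HoxD. On GRCm38 the genes of HoxA spanned chr6:52155590-52260880, those of HoxB chr11:96194316-96368256, those of HoxC chr15:102921103-103036852 and those of HoxD chr2:74668310-74765142.

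The nuclei came from bone marrow cells sorted as Lin-cKit+, a gate that holds hematopoietic stem and progenitor cells (HSPCs), and the chemistry reads RNA molecules (unique molecular identifiers, UMIs) and transposase-accessible chromatin (ATAC) from the same nucleus. The labels gave 1 control sample without ligature (Ctrl) and 1 sample with ligature (Lig), with RNA and ATAC read as separate libraries, and per the methods of the study these were male C57BL/6 mice of 8 weeks with silk ligatures on the molars for 14 d or none, with the marrow of several mice pooled in each sample. The deposited matrix joined both samples under barcode suffixes 1 and 2, and the labels do not say which suffix is which sample, so the suffixes are called library 1 and library 2 and no comparison of ligature with control was made. There were therefore no replicates, no test was run, and every interval below is a 95% interval that covers counting error only.

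Of 18961 barcodes, 13619 nuclei with 200 or more genes and 1000 to 50000 ATAC counts were kept, 5905 from library 1 and 7714 from library 2. These held 10294527 and 12537328 UMIs, a median of 1641 and 1516.5 UMIs per nucleus, and 118239764 and 128699726 ATAC counts in peaks. The libraries stood apart in RNA make-up, since 3 genes at the ribosomal RNA locus took 43.0% of UMIs in library 1 and 53.2% in library 2, and 72 barcode sequences occurred in both libraries among the kept nuclei. Clustering without the Hox genes and Hox peaks gave 18 clusters, of which 14 carried enough markers of a class for a name such as HSC-like, and 4 are called by their leading genes. The cluster called MPP-like expressed Flt3, Dntt, Satb1 and Cd34, markers of multipotent progenitors with lymphoid potential, and the HSC-like cluster expressed Mecom, Hlf, Procr and Fgd5, markers of stem cells.

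Hox genes encode homeodomain transcription factors that set positional identity along the body axis of the embryo. Within each cluster the genes lie in the order of their paralogue numbers, from group 1 at the 3′ end to group 13 at the 5′ end, and in the embryo they are switched on in roughly that order. In blood, HoxA and HoxB genes are expressed in stem and early progenitor cells and are shut down as cells mature. Hoxa9 is the member best known for its part in stem cell expansion and in leukemia, where it acts with the TALE homeodomain cofactors Meis1 and Pbx. Polycomb complexes silence the clusters and the MLL (trithorax) complex keeps them active.

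Sequences are shown for the starts of Hoxa5 and Hoxa9, which had the highest RNA levels per kilobase among Hox genes and were both called higher in the MPP-like cluster, and for the only 2 of 126 Hox peaks that were called higher there, where 3.59% of all peaks were. For each gene the 250 bases before a RefSeq start are given on the strand of the gene (minus), chr6:52204588-52204837 for Hoxa5 and chr6:52227371-52227620 for Hoxa9, both free of annotated exons. For each peak the central 300 bases are given on the plus strand. The HoxB peak, chr11:96276943-96277242, lay between Hoxb9 and Hoxb8 outside any gene, and the HoxD peak, chr2:74749451-74749750, lay at the start of the noncoding RNA Haglr, in a noncoding exon. Capitals mark matches to the motif letters searched.
Hoxa5: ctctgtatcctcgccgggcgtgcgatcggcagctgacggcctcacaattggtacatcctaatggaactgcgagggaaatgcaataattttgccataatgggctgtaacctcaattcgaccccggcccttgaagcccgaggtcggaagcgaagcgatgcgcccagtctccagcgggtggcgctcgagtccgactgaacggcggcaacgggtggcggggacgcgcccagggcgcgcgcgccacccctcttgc
Hoxa9: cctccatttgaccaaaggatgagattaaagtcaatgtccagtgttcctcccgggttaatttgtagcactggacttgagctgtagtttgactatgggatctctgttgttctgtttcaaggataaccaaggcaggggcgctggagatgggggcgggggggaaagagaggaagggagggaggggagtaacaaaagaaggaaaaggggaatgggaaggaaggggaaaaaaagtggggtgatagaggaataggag
HoxB peak: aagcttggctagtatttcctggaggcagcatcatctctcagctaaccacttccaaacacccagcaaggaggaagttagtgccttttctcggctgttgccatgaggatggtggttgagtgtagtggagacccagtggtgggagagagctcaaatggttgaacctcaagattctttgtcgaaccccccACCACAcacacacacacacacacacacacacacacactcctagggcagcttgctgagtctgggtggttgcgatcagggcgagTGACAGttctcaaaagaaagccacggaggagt
HoxD peak: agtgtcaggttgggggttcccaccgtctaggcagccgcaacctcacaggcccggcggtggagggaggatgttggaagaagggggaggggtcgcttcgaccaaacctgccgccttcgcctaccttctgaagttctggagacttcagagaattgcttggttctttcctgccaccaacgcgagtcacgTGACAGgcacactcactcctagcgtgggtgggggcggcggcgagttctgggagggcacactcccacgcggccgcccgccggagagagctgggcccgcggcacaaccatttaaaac
In the HoxB peak the capitals are ACCACA, the RUNX letters TGTGGT read on the other strand, and TGACAG, the core bound by MEIS and related TALE proteins. In the HoxD peak the capitals are TGACAG. None of the 7 motifs searched occurred in the Hoxa5 or Hoxa9 stretch, and the stretches differed in base composition, with 28 CpG at Hoxa5 and 3 at Hoxa9. The Hoxa9 stretch lies outside the accessible peak over the Hoxa9 start region described below, so these values do not describe that region. Such matches are letters in a window and not binding sites, and TGACAG was present in the central 500 bases of 33.3% of all peaks.

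Hox RNA was sparse and came mostly from HoxA. In all, 1158 Hox UMIs were counted, 620 in library 1 and 538 in library 2, and 914 of them (78.9%) were HoxA, 203 (17.5%) HoxB, 24 (2.07%) HoxC and 17 (1.47%) HoxD. No Hox UMI was present in 12590 of the kept nuclei (92.4%), 1 Hox gene was detected in 966 nuclei and 2 Hox genes in 59. HoxA ranked above HoxB, and HoxB above HoxC and HoxD, in both libraries. HoxC and HoxD, with 7 and 6 UMIs in library 1 and 17 and 11 in library 2, did not differ beyond their intervals.

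**Figure D1:**
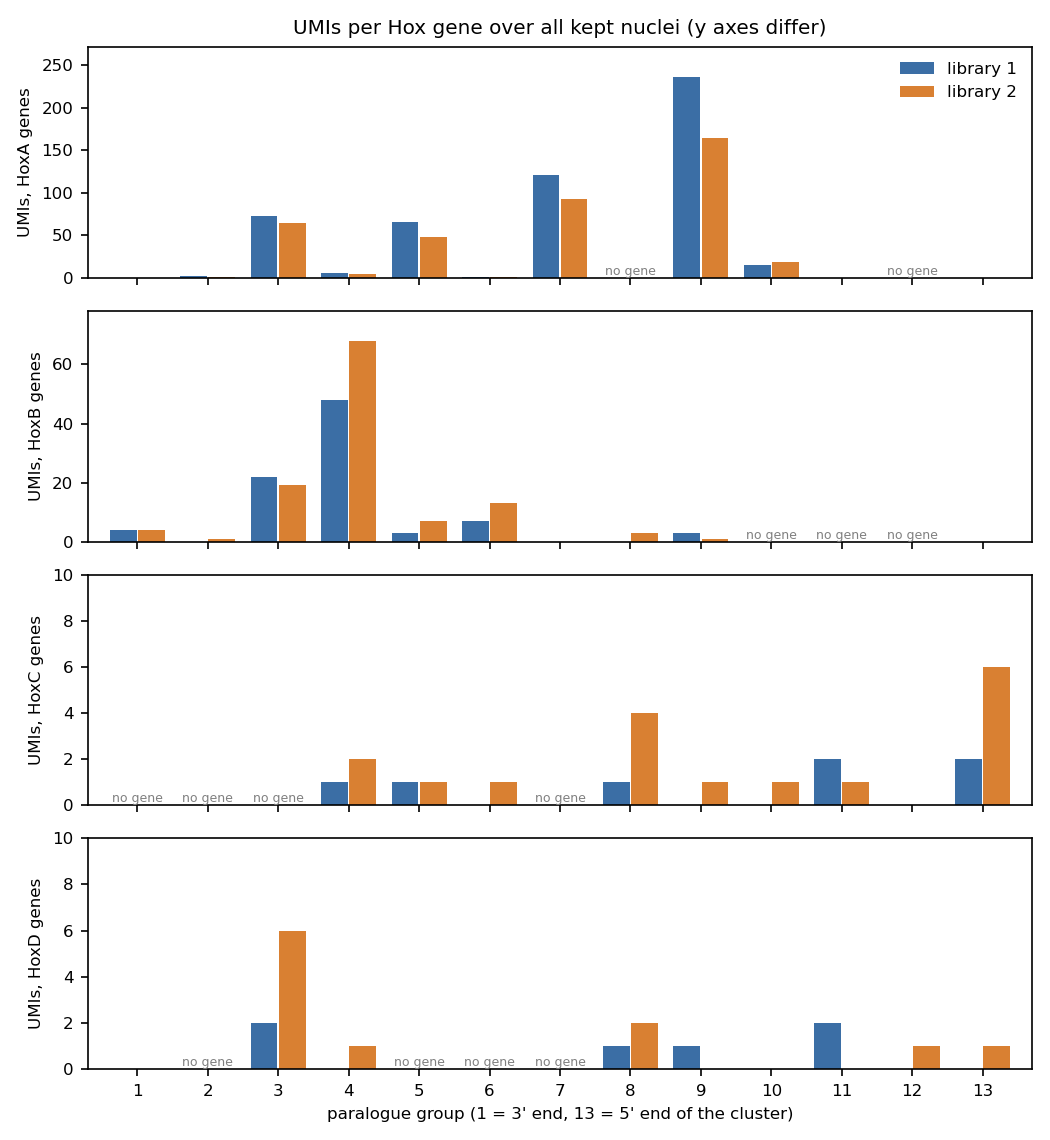
UMIs of each Hox gene over all kept nuclei (vertical axis, whose scale differs between panels) by paralogue group (horizontal axis), with 1 panel for each Hox cluster and bars for library 1 and library 2. HoxA bars peak at group 9, HoxB bars at group 4, and HoxC and HoxD bars stay at 6 UMIs or fewer in each library.

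The genes detected differed by position in the cluster. Within HoxA, UMIs fell mostly on Hoxa9, Hoxa7, Hoxa3 and Hoxa5, with few on Hoxa4 and Hoxa6, which lie between them. Hoxa9 had 236 UMIs in library 1 and 164 in library 2, Hoxa7 had 121 and 93, Hoxa3 had 73 and 64, and Hoxa5 had 66 and 48. Hoxa10 had 15 and 19 UMIs and Hoxa4 had 6 and 4, while Hoxa2 and Hoxa6 had 3 and 2 UMIs in total. Toward the 5′ end, Hoxa11 and Hoxa13 had none, where a count of 0 allows up to 0.131 CPM on a floor of 3 counts. CPM is used throughout for a count over all counts of the same kind in the same cluster of nuclei and library, on the usual scale. Paralogue group 4 led in HoxB, where Hoxb4 had 48 UMIs in library 1 and 68 in library 2, followed by Hoxb3 with 22 and 19, Hoxb6 with 7 and 13 and Hoxb5 with 3 and 7. Hoxb7 and Hoxb13 had none.

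Per kilobase of gene span, the level over all nuclei was 2.19 CPM for Hoxa9, 1.76 for Hoxa5, 1.51 for Hoxb4 and 1.27 for Hoxa7. The same level was 0.136 for Hoxa3, whose annotated span of 44275 bases runs over Hoxa4, Hoxa5 and Hoxa6 on the same strand, so that its reads cannot be cleanly told from theirs in nuclear RNA. Noncoding RNAs lie opposite several members, among them Hoxaas3 opposite Hoxa5 and Hoxa7. In HoxC and HoxD the highest member, shared by Hoxc13 and Hoxd3, had 8 UMIs, and Hoxc12, Hoxd1 and Hoxd10 had none. In all, 31 of the 39 genes had a UMI and 8 had none, and 5 genes reached the 50 UMIs needed for a level in each cluster of nuclei. The other 34 genes summed to 177 UMIs, with 13.9 CPM (9.65 to 19.3) in the HSC-like and 10.8 (6.52 to 16.9) in the MPP-like cluster against 7.75 (6.65 to 8.98) over all nuclei.

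HoxA RNA was highest in the MPP-like and HSC-like clusters in both libraries. Summed HoxA RNA in the MPP-like cluster was 174 CPM in library 1 and 95.3 in library 2, and in the HSC-like cluster it was 127 and 56.7. With both libraries joined, the MPP-like cluster had 133 CPM (116 to 151) and the HSC-like cluster 86.3 (75.2 to 98.5), intervals that did not overlap. That order rested on the clustering, since at a finer clustering (resolution 1.2) the HSC-like cluster had 153 CPM against 130 in the MPP-like cluster, and with Hox features kept in clustering 143 against 136. The next clusters held far less. The MkP-like (megakaryocyte progenitor) cluster had 37.7 (23.0 to 58.2), the Ccnb1ip1/Zc3h7a cluster 37.5 (25.5 to 53.2), the EryP-like (erythroid) cluster 36.4 (25.9 to 49.7), the pDCP-like (plasmacytoid dendritic cell progenitor) cluster 35.2 (27.4 to 44.5), the larger pro-B-like cluster 34.4 (27.1 to 43.1) and the GMP-like (granulocyte-monocyte progenitor) cluster 24.2 (18.3 to 31.4). The cDCP-like, smaller pro-B-like, pro-NK/T-like and Sox6/Rpl34 clusters lay between these last values, at 29.6, 29.2, 27.0 and 25.3, from 10 or fewer HoxA UMIs each. Neighbours from MkP-like to pro-B-like did not differ beyond their intervals. The lowest levels among clusters of 400 or more nuclei were 15.3 (11.4 to 19.97) in the Nrg1/Gpr141 cluster and 4.65 (0.959 to 13.6) in the NeuP-like (neutrophil progenitor) cluster, which held 3 HoxA UMIs among 645128.

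The share of nuclei with any HoxA UMI again put the MPP-like above the HSC-like cluster after each nucleus was thinned to 1000 UMIs, which left 11434 nuclei. It was 12.2% in the MPP-like cluster (10.1 to 14.5, 112 of 921 nuclei), 8.04% in the HSC-like cluster (6.64 to 9.63, 108 of 1343) and 3.69% over all nuclei. This order too rested on the clustering, with 14.6% in the HSC-like and 11.9% in the MPP-like cluster at resolution 1.2, and 13.5% and 12.5% with Hox features kept. Among the other clusters the order was not that of summed RNA, with 3.68% in the pDCP-like, 3.40% in the larger pro-B-like, 2.56% in the MkP-like and 2.28% in the EryP-like cluster, and their intervals overlapped. In the NeuP-like cluster, a late myeloid stage in which Hox genes are known to be shut down, it was 0.34% (1 of 294), and its median depth of 1137 UMIs stood beside 1545 in the MPP-like and 1541 in the HSC-like cluster. Unthinned, the shares were 18.7% in the MPP-like, 12.3% in the HSC-like and 0.625% in the NeuP-like cluster.

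Hoxa9 carried the lead of the MPP-like cluster. It had 107 CPM in library 1 and 49.3 in library 2 there, from 90 and 45 UMIs, against 54.6 and 23.2 in the HSC-like cluster. The next levels with both libraries joined were in the Ccnb1ip1/Zc3h7a cluster, with 22.8 and 18.1, and in the EryP-like cluster, with 23.6 and 10.4. Against all other nuclei the MPP-like ratio was 6.93 in library 1 and 4.81 in library 2, and the HSC-like ratio was 2.83 and 1.98. Hoxa9 therefore met the call used here, a ratio of at least 2 in both libraries, in the MPP-like cluster and missed it by a little in the HSC-like cluster. The HSC-like call was made in 7 of 14 alternative settings, among them both other resolutions, and the ratio ran from 1.98 to 6.71 over the 14. Some outcomes were fixed by the ratios just given, such as those for either library alone and for 1.5-fold and 3-fold calls. The tally is therefore no measure of how firm the call is. The mature B-like cluster held no Hoxa9 UMI, which on the floor of 3 counts allows up to 11.6 CPM, and the NeuP-like cluster held 1.

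Hoxa5 and Hoxa3, which lie toward the 3′ side of Hoxa9 and overlap on the same strand, were raised in both clusters to a like degree at this clustering. Hoxa5 had 20.7 CPM in library 1 and 10.2 in library 2 in the HSC-like cluster, and 17.8 and 14.2 in the MPP-like cluster. Its ratios to other nuclei were 4.35 and 3.44 in the HSC-like and 3.31 and 4.73 in the MPP-like cluster. Hoxa3 had 25.4 and 10.9 CPM in the HSC-like cluster and 14.3 and 17.5 in the MPP-like cluster. Its ratios were 5.10 and 2.52 in the HSC-like and 2.21 and 4.24 in the MPP-like cluster. For both genes the HSC-like cluster was the higher one in library 1 and the MPP-like cluster in library 2.

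Hoxa7 was spread more evenly over lineages. It had 30.9 CPM in library 1 and 13.1 in library 2 in the MPP-like cluster, 20.7 and 8.19 in the HSC-like cluster and 12.4 and 12.5 in the larger pro-B-like cluster. The MkP-like cluster had 25.5 (9.34 to 55.4) and 10.2 (2.09 to 29.7), from 6 and 3 UMIs, the latter at the floor of 3 counts. Hoxa7 was called higher in no cluster, with MPP-like ratios of 3.08 and 1.89. Hoxb4, a gene known for expanding stem cells when forced on, differed little between stem and myeloid progenitor clusters. Its level was 7.12 CPM (4.22 to 11.3) in the HSC-like, 6.84 (3.53 to 11.9) in the MPP-like and 6.48 (3.63 to 10.7) in the GMP-like cluster, against 5.08 (4.20 to 6.09) over all nuclei, and no UMI was found in the MkP-like cluster.

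**Figure D2:**
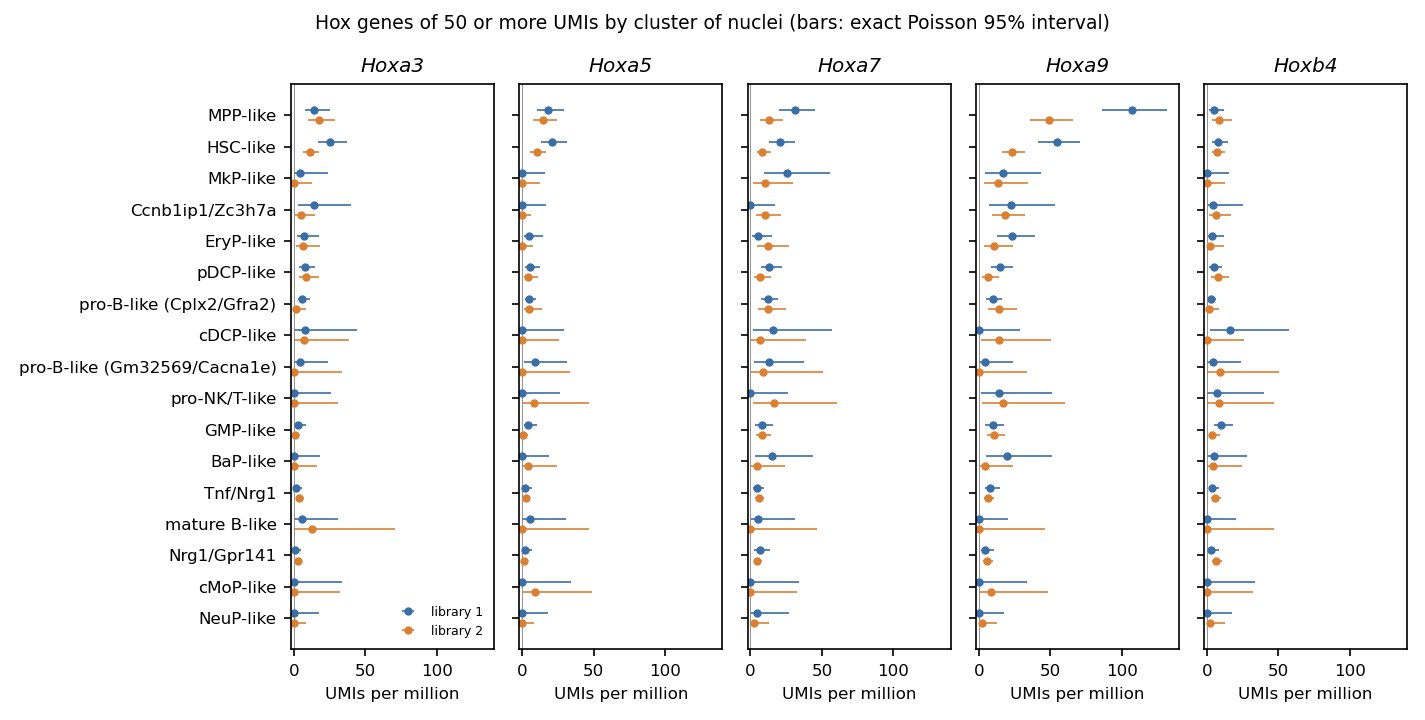
Level of the 5 Hox genes with 50 or more UMIs (horizontal axis, CPM of the cluster and library) in 17 clusters of nuclei (vertical axis, ordered by summed HoxA RNA), with points for library 1 and library 2 and bars for exact Poisson 95% intervals. The Sox6/Rpl34 cluster of 86 nuclei is not drawn. Hoxa9 in the MPP-like cluster lies at 107 in library 1 and 49.3 in library 2, and Hoxb4 stays within 15.8 throughout.

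Counts of called members were read against all genes. In the MPP-like cluster 3 of the 5 members tested were called higher (Hoxa3, Hoxa5 and Hoxa9), where 3.48% of the 10542 genes tested were, and in the HSC-like cluster 2 of 5 (Hoxa3 and Hoxa5), where 1.85% were. The HSC-like count fell to 0 with at least 500 genes per nucleus. Since the Hoxa3 span runs over Hoxa5 on the same strand, the Hoxa3 and Hoxa5 calls are not cleanly separate in either cluster. None was called lower in the MPP-like cluster, where 3.33% were, or in the HSC-like cluster, where 2.66% were. No member was called higher in the other 16 clusters, where between 0.18% and 6.95% of genes were. In the NeuP-like cluster 5 of 5 members met the rule for lower, where 21.0% of genes did, but each had only 0 to 2 UMIs there. In library 1 the floor of 3 counts, 14.4 CPM, lay above the level over all nuclei of each of them except Hoxa9, so in that library a lower level of the other 4 was not detectable at this depth. In library 2 the floor, 6.87 CPM, still lay above the levels of Hoxa3, Hoxa5 and Hoxb4, so neither library could show a lower level of these genes. Summed HoxA RNA, at 4.65 CPM (0.959 to 13.6) against 40.03 (37.5 to 42.7) over all nuclei, had an interval apart. In the Nrg1/Gpr141 cluster 3 members were called lower (Hoxa3, Hoxa5 and Hoxa9), where 5.39% of genes were, in the MkP-like cluster 2 (Hoxa5 and Hoxb4), where 8.58% were, and in the Tnf/Nrg1 cluster Hoxa9 alone, where 5.30% were. Neither Hoxa5 nor Hoxb4 had a UMI in the MkP-like cluster. The floor there, 12.7 CPM in library 1 and 10.2 in library 2, lay above their levels over all nuclei, so a lower level was not detectable. In the GMP-like cluster Hoxa3 alone was called lower, where 5.07% of genes were. The remaining calls of lower members lay in clusters of under 400 nuclei apart from the Ccnb1ip1/Zc3h7a cluster. They were 3 members in the mature B-like cluster (Hoxa7, Hoxa9 and Hoxb4), where 17.7% of genes were, 3 in the cMoP-like (monocyte progenitor) cluster (Hoxa3, Hoxa7 and Hoxb4, all without a UMI there), where 23.5% were, and 3 in the Sox6/Rpl34 cluster (Hoxa3, Hoxa7 and Hoxa9), where 36.0% were. A single member was called lower in the BaP-like (basophil progenitor) cluster (Hoxa3), where 11.8% were, the pro-NK/T-like cluster (Hoxa3), where 15% were, the cDCP-like (conventional dendritic cell progenitor) cluster (Hoxa5), where 18.1% were, the smaller pro-B-like cluster (Hoxa9), where 13% were, and the Ccnb1ip1/Zc3h7a cluster (Hoxa5), where 5.08% were. Most of these members had under 10 UMIs in the cluster concerned. For the clusters listed from mature B-like to Ccnb1ip1/Zc3h7a, the floor of 3 counts lay above the level over all nuclei of each member named, in both libraries. The exceptions were Hoxa9 in library 1 of the mature B-like and smaller pro-B-like clusters, so a lower level was otherwise not detectable. The NeuP-like cluster also stood apart in its 58.5% of UMIs at the ribosomal RNA locus, whose part in the low Hox levels was not tested.

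The make-up of HoxA RNA also differed along the lineages. Hoxa9 made up 57.9% of HoxA UMIs in the MPP-like cluster (51.3 to 64.4, 135 of 233 UMIs) and 42.2% in the HSC-like cluster (35.6 to 49.1, 92 of 218). In the larger pro-B-like cluster it made up 32.0% (21.7 to 43.8, 24 of 75). Hoxa7 went the other way, with 36.0% of HoxA UMIs in the pro-B-like cluster (25.2 to 47.9) against 16.3% in the MPP-like (11.8 to 21.7) and 15.6% in the HSC-like cluster (11.05 to 21.1). This was not particular to the pro-B-like cluster. Hoxa7 made up 18 of 53 HoxA UMIs in the Nrg1/Gpr141, 18 of 56 in the GMP-like, 20 of 70 in the pDCP-like and 9 of 20 in the MkP-like cluster. It made up 19 of 72 in the Tnf/Nrg1, 9 of 39 in the EryP-like and 6 of 31 in the Ccnb1ip1/Zc3h7a cluster. Shares of Hoxa7 in the pro-B-like cluster were 36.5% in library 1 and 34.8% in library 2. Shares of Hoxa9 there were 28.8% and 39.1%, against 61.6% and 51.7% in the MPP-like cluster. With both libraries joined, the Clopper-Pearson intervals of the pro-B-like and the MPP-like cluster did not overlap for either gene, whereas within single libraries they overlapped apart from those of Hoxa9 in library 1.

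**Figure D3:**
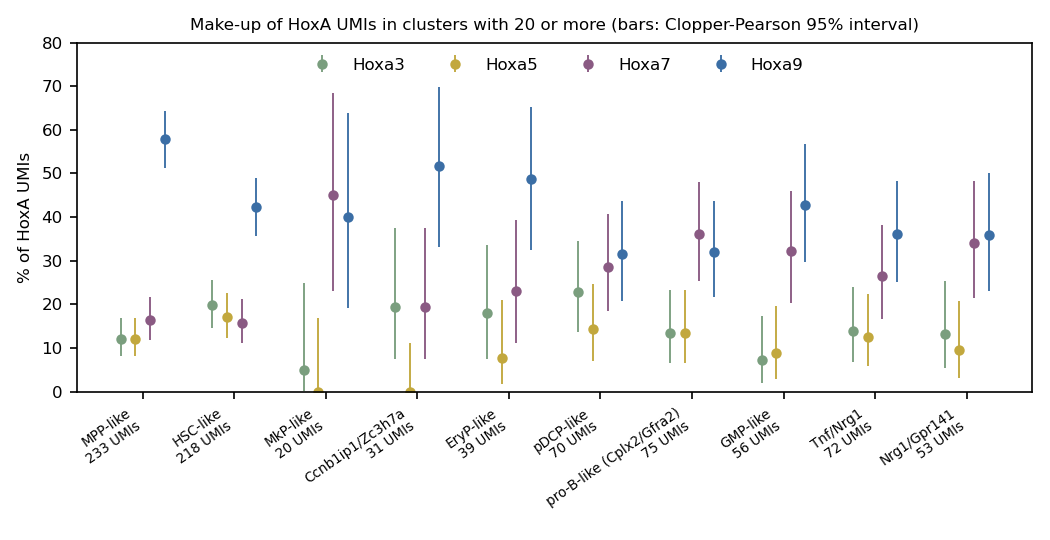
Share of HoxA UMIs (vertical axis, %) that were Hoxa3, Hoxa5, Hoxa7 or Hoxa9 in each cluster of nuclei with 20 or more HoxA UMIs (horizontal axis, from the highest to the lowest summed HoxA level), both libraries joined, with Clopper-Pearson 95% intervals. Hoxa9 lies at 57.9% in the MPP-like and 32.0% in the larger pro-B-like cluster, and Hoxa7 at 16.3% and 36.0%.

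The HSC-like cluster was not uniform. At a finer clustering it fell mainly into 2 clusters, which took 601 and 912 of its nuclei. The first held 602 nuclei in all, was led by Mecom, Samd12 and Hlf and kept the name HSC-like. The second held 955 nuclei in all, was led by Mdga1, Slc24a3 and Slco3a1 and had too few markers for a name. In the former, Hoxa9 was at 96.0 CPM in library 1 and 44.9 in library 2, and in the latter at 25.6 and 12.7. With both libraries joined, Hoxa9 was at 69.3 (53.1 to 88.8) against 17.7 (11.96 to 25.3), and Hoxa5 at 29.1 (19.0 to 42.6) against 6.499 (3.24 to 11.6). Hoxa3 was at 27.9 (18.1 to 41.2) against 10.0 (5.85 to 16.1). Hoxa9 in the Mecom-led nuclei thus lay within the range of the MPP-like cluster at 77.0 (64.5 to 91.1).

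HoxA RNA in the HSC-like and MPP-like clusters was higher in library 1 than in library 2, and so was the level of the median gene. Library 1 stood at 2.24 times library 2 in the HSC-like and 1.82 times in the MPP-like cluster, where the median gene stood at 1.58 and 1.55 times. Without the 3 ribosomal genes in the totals, HoxA stood at 1.78 and 1.42 times and the median gene at 1.25 and 1.21. No group was attached to either library.

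Accessibility of the Hox clusters varied much less than their RNA. The 126 peaks held 160998 ATAC counts, of which 37.3% fell on HoxA, 28.8% on HoxB, 14.7% on HoxC and 19.3% on HoxD. HoxC and HoxD, which had almost no RNA, thus still held open chromatin. Peaks within 1 kb of a transcript start of a gene in the matrix numbered 62 of 126 and held 63.7% of the counts. HoxA accessibility was 314 CPM (294 to 336) in the MkP-like, 277 (268 to 287) in the larger pro-B-like, 274 (265 to 283) in the HSC-like and 261 (250 to 271) in the MPP-like cluster, and 222 (213 to 230) in the GMP-like cluster. With both libraries joined, low values were 178 (156 to 203) in the mature B-like, 173 (146 to 204) in the Sox6/Rpl34 and 139 (126 to 153) in the NeuP-like cluster. In these clusters the median ratio of all peaks tested to other nuclei was low too, at 0.58, 0.73 and 0.59. The Sox6/Rpl34 cluster had 155 in library 1 and 269 (189 to 371) in library 2, so it was not low in library 2, where all nuclei had 248. In library 1 and library 2 the NeuP-like values were 111 and 156, and the MPP-like values 255 and 266.

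**Figure D4:**
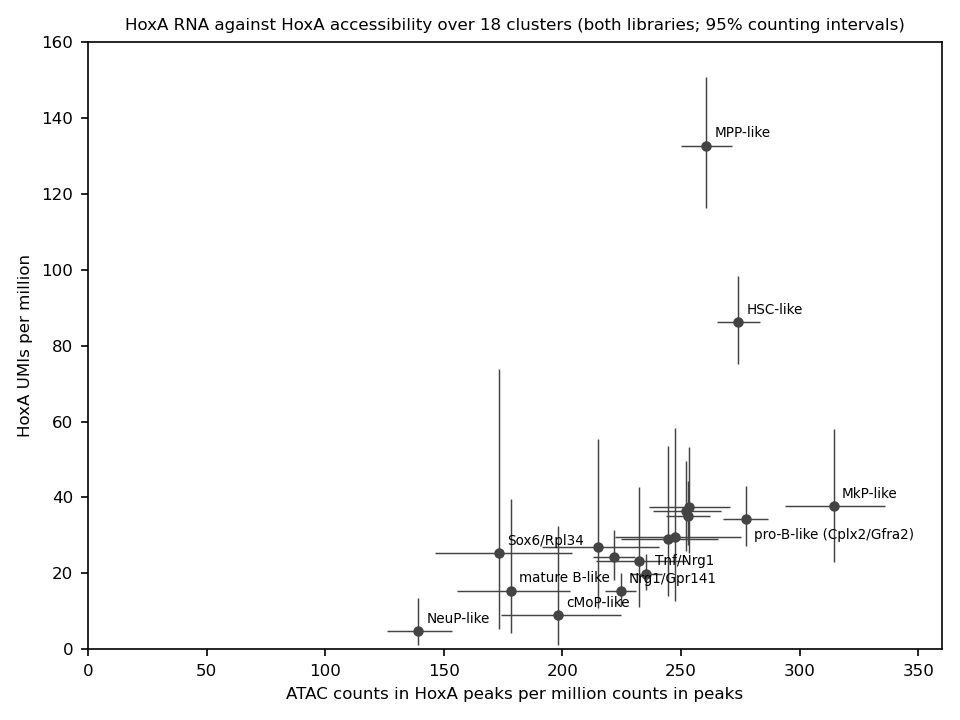
Summed HoxA RNA (vertical axis, CPM) against summed HoxA accessibility (horizontal axis, CPM of ATAC counts in peaks) over the 18 clusters of nuclei, both libraries joined, with 95% counting intervals. The MPP-like cluster is at 133 CPM of RNA and 261 CPM of ATAC, the MkP-like cluster at 37.7 and 314, and the NeuP-like cluster is lowest on both axes at 4.65 and 139.

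The order of clusters in RNA was therefore not the order in ATAC. The MPP-like cluster had more HoxA RNA than the MkP-like cluster and less HoxA accessibility, with intervals apart on both scales. The peak over the Hoxa9 start region, chr6:52225705-52226553, named after its values were seen, held 29.2 CPM in library 1 and 24.2 in library 2 in the HSC-like cluster, and 16.1 and 19.5 in the MPP-like cluster. It held 32.3 and 32.6 in the MkP-like cluster and 4.86 and 11.1 in the NeuP-like cluster. The Hoxa9 stretch printed above, chr6:52227371-52227620, lies outside this peak. Hoxa9 RNA and this peak thus ranked the HSC-like and MPP-like clusters in opposite order in both libraries at this clustering, whereas the Hoxa9 interval of the Mecom-led nuclei overlapped that of the MPP-like cluster.

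The most accessible HoxA peak lay at an upstream start of Hoxa7, chr6:52221369-52222276, with 6790 counts. With both libraries joined it was highest in the larger pro-B-like cluster, at 50.9 CPM (46.9 to 55.1). That cluster had 49.9 CPM in library 1 and 53.5 in library 2, the smaller pro-B-like cluster 41.2 and 53.7 and the MkP-like cluster 51.1 and 39.5, so the larger pro-B-like cluster led in neither library alone. The HSC-like cluster had 25.2 and 27.1, near the 28.7 and 26.4 of all nuclei. The larger pro-B-like ratio of 1.99 in library 1 and 2.15 in library 2 fell just short of a call. By contrast, the peak at the Hoxa4 start, chr6:52191489-52192314, was flat, with 22.7 and 23.7 in the HSC-like, 30.1 and 28.3 in the larger pro-B-like and 19.4 and 22.2 in the NeuP-like cluster.

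In HoxB the deepest peaks varied little between lineages. The peak at the Hoxb4 start, chr11:96318316-96319196, had 17.99 CPM in library 1 and 19.1 in library 2 in the HSC-like, 15.4 and 16.5 in the MPP-like and 11.05 and 19.5 in the NeuP-like cluster. The deepest HoxB peak, chr11:96311244-96312138 between Hoxb5 and Hoxb4, had 19.8 and 19.3 in the HSC-like and 14.1 and 16.2 in the NeuP-like cluster. An intronic peak at Hoxb6, chr11:96294269-96295160, differed more, with 10.45 and 11.1 in the HSC-like against 0 and 4.60 in the NeuP-like cluster.

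In HoxC and HoxD open chromatin was present without RNA to match. The peak at the Hoxc10 start, chr15:102966258-102967155, had 12.2 and 17.01 CPM in the HSC-like, 11.8 and 13.6 in the MPP-like and 8.40 and 8.93 in the NeuP-like cluster, while Hoxc10 had 1 UMI in all. The deepest HoxD peak, chr2:74655508-74656383, lay in an exon of the neighbouring gene Evx2 and was not low in the NeuP-like cluster, at 21.7 and 27.6 against 17.2 and 19.0 over all nuclei. The HoxD peak chr2:74715553-74716435, near Hoxd4, had 14.4 and 13.8 in the HSC-like and 3.54 and 2.71 in the NeuP-like cluster. Ranked by the ratio of HSC-like to other nuclei, the leading peaks of each Hox cluster were an intronic HoxA peak at chr6:52197857-52198763 with a ratio of 1.67, the HoxB peak printed above with 1.85, a HoxC peak in an exon of Hoxc13 at chr15:102927052-102927942 with 1.55 and the HoxD peak printed above with 1.55. These ratios ordered the peaks and are given as a description.

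Peaks that stood out by lineage were few. In the HSC-like cluster 0 of 126 peaks were called higher, where 2.17% of the 158601 peaks tested were, and 0 called lower, where 4.63% were. In the MPP-like cluster 2 were called higher, where 3.59% were, the pair printed above, and 0 lower, where 10.2% were. The count of higher peaks was 0 without the top 8% of doublet scores, 4 in library 1 alone, and 1 in each of 3 other settings. The share of all peaks was not computed in those settings. The HoxB peak had 4.74 and 4.46 CPM there and 2.29 and 2.38 over all nuclei. The HoxD peak had 7.86 and 10.48 there and 4.08 and 4.21 over all nuclei, and was higher still in the pro-NK/T-like cluster at 21.5 and 11.003. In the MkP-like cluster 3 peaks were called higher, where 4.27% were: the Hoxa10 start at chr6:52233827-52234708 with 33.1 and 26.6 CPM against 12.3 and 12.6 over all nuclei, and the HoxB peaks chr11:96239943-96240847 and chr11:96269609-96270380. In the same cluster 4 Hox peaks were called lower, where 19.0% were.

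The NeuP-like cluster had low accessibility over peaks in general, those of the 4 Hox clusters among them. In it 43 of 126 peaks (34.1%) were called lower, where 28.2% of all peaks tested were, and the median ratio was 0.42 for the Hox peaks and 0.59 for all peaks. In library 1 alone 74 Hox peaks were called lower and in library 2 alone 56, counts for which the share of all peaks was not computed. The summed level of all Hox peaks in the NeuP-like cluster was 295 CPM in library 1 and 439 in library 2. By cluster the median ratio was 0.45 for HoxA, 0.52 for HoxB, 0.35 for HoxC and 0.48 for HoxD. A single peak was called higher, chr11:96368880-96369737, which lies 2622 bases from the nearest Hoxb1 start, with 4.86 and 9.20 CPM against 1.22 and 1.86 over all nuclei, where 3.52% of peaks were called higher. In the mature B-like cluster 33 of 126 peaks (26.2%) were called lower, where 33.5% were, a share below the background. The floor of 3 pairs of counts there was 3.21 CPM in library 1 and 9.45 in library 2. A HoxC peak of 800 counts, near the median depth of Hox peaks, had 2.75 and 3.69 over all nuclei. A lower level of such a peak was therefore not detectable there. The NeuP-like floor, 2.65 and 1.62, lay below these values, though above those of the shallowest Hox peaks. In the larger pro-B-like cluster 4 peaks were called lower, where 26.0% were, with a median ratio of 0.999 for the Hox peaks and of 0.74 for all peaks.

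The other clusters gave scattered calls. Higher Hox peaks numbered 5 in the pro-NK/T-like cluster, where 3.84% of peaks were, among them the Hoxc6 start, 3 in the cDCP-like cluster, where 5.32% were, 2 in the Sox6/Rpl34 cluster, where 3.03% were, and 1 each in the pDCP-like cluster, where 2.63% were, the smaller pro-B-like cluster, where 5.45% were, and the mature B-like cluster, where 3.55% were. Lower Hox peaks numbered 34 in the Sox6/Rpl34 cluster, where 26.8% were, 23 in the cDCP-like cluster, where 21.3% were, 22 in the cMoP-like cluster, where 23.2% were, 13 in the pro-NK/T-like cluster, where 30.7% were, and 11 in the smaller pro-B-like cluster, where 31.9% were. There were 9 in the EryP-like cluster, where 20.9% were, 6 in the BaP-like cluster, where 12.5% were, and 4 in the Ccnb1ip1/Zc3h7a cluster, where 3.67% were.

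**Figure D5:**
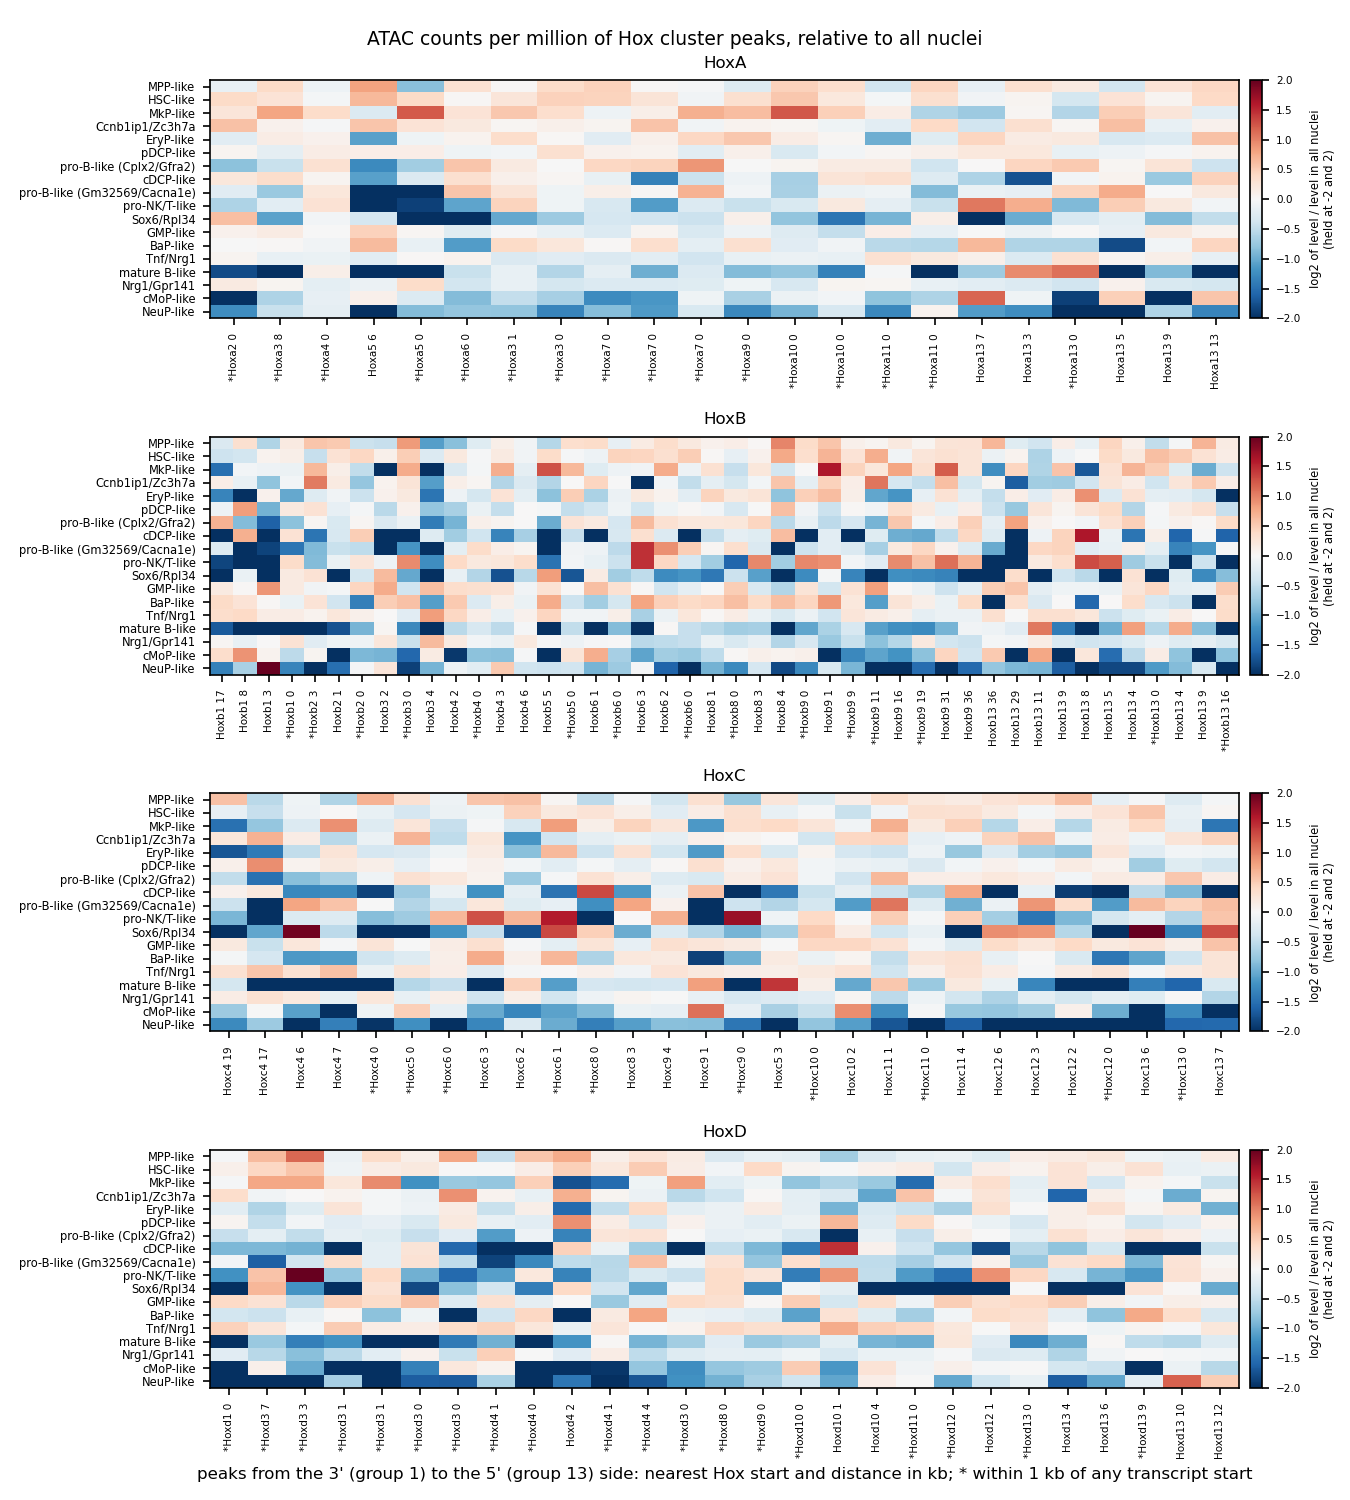
Accessibility of Hox peaks (columns, from the 3′ to the 5′ side of each Hox cluster, named by the nearest Hox start and the distance to it in kb) in each cluster of nuclei (rows), as the log2 of its CPM over that in all nuclei, held at the ends of the colour bar, with an asterisk at peaks within 1 kb of a transcript start of a gene in the matrix. The NeuP-like row is mostly blue in all 4 panels, with single peaks in red, and the HSC-like row is mostly pale.

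Called in any cluster of nuclei, 16 of 126 Hox peaks (12.7%) were higher somewhere, where 40.1% of all peaks tested were. The median depth was 786 counts for Hox peaks and 580 for all. Among peaks within 1 kb of any annotated transcript start, including genes without a row in the matrix, it was 5 of 68 (7.35%) for Hox peaks and 25.3% of 33313 for all, with medians of 981 and 1594 counts. In sequence, Hox peaks had a median GC content of 55.6% against 47.0% for all peaks and a median ratio of observed to expected CpG of 0.562 against 0.212. That ratio passed 0.6 in 42.1% of Hox peaks and 7.91% of all peaks.

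Motif letters were counted in the central 500 bases of each peak on both strands. The MEIS letters TGACAG were present in 30 of 126 Hox peaks (23.8%) and in 33.3% of all peaks. The RUNX letters TGTGGT were in 39 Hox peaks (31.0%) and in 41.0% of all peaks. For the letters AGATAA, read by erythroid and megakaryocytic factors of the GATA family, it was 15 (11.9%) and 21.8%. CEBP letters, TTGCNNAA, were in 22 (17.5%) and 21.2%. A composite of HOX and PBX, TGATTNAT, was in 5 Hox peaks and in 5.70% of all peaks. The core of the CTCF motif was in 3 (2.38%) and 4.46%. The ETS letters CCGGAAG were in 10 Hox peaks (7.94%) and 4.62% of all peaks, the only ones of these with a higher share in Hox peaks. The higher GC content of Hox peaks stands beside these shares, and its part in them was not tested.

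The partners and regulators of Hox genes were examined from lists chosen with earlier results of these data known. Of 8 TALE cofactors with 50 or more UMIs, Meis1 alone was called higher in the HSC-like cluster (1.85% of all genes), with 502 CPM in library 1 and 162 in library 2, and it had 318 and 134 in the MPP-like cluster, where Tgif2 was called too (3.48% of all genes). Meis1 is also one of the markers that named the HSC-like cluster. In the MkP-like cluster Meis1 had 899 and 254. In the NeuP-like cluster Meis1 was called lower with 19.2 and 11.5, where 21.0% of all genes were.

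Of 14 trithorax and MLL genes none was called in the HSC-like cluster, where 1.85% of all genes were higher and 2.66% lower, or in the MPP-like cluster, where 3.48% were higher and 3.33% lower, and 2, Kmt2b and Mllt3, were called lower in the NeuP-like cluster, where 21.0% of all genes were. Of 18 Polycomb genes tested, 6 were called lower in the NeuP-like cluster, where 21.0% of all genes were (Ezh1, Bmi1, Pcgf2, Ring1, Cbx2 and Kdm2b), Pcgf2 was called lower in the MPP-like cluster, where 3.33% were, and Ezh2 and Cbx2 were called higher in the larger pro-B-like cluster, where 4.64% were. Among 4 upstream and boundary genes tested, Rara was called higher in the MPP-like cluster, where 3.48% of all genes were, and Ctcf and the cohesin gene Rad21 in the larger pro-B-like cluster, where 4.64% were. Of 9 known targets of Hoxa9 and Meis1, 3 were called higher in the HSC-like cluster, where 1.85% of all genes were (Meis1, Lmo2 and Cd34), and 4 in the MPP-like cluster, where 3.48% were (Meis1, Flt3, Sox4 and Cd34), of which Meis1, Flt3 and Cd34 are cluster markers. In the NeuP-like cluster 5 were called lower (Meis1, Flt3, Myb, Bcl2 and Pim1), where 21.0% were. Of 6 flanking genes tested, Calcoco1, which lies beside HoxC, was called higher in the MPP-like cluster, where 3.48% of all genes were, and none of the noncoding RNAs inside the clusters reached 50 UMIs.

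Over the 18 clusters of nuclei, the genes whose levels ran most like Hoxa9 were Zfp521, AC149090.1 and Rcn1, with Pearson correlations of 0.84, 0.83 and 0.82 on the log2 scale. Those most like Hoxa7 were Usp54, Urb2 and Imp4, at 0.93, 0.93 and 0.92. These were the highest of 6907 genes compared, and the points share libraries and depth. In several of the clusters Hoxa9 and Hoxa7 had 4 or fewer UMIs. Usp54, Urb2 and Imp4 had 264, 335 and 263 UMIs over all nuclei, so many of the points rest on few counts.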

How the data were processed

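Per the labels and the methods of the study, the authors made raw counts with Cell Ranger ARC 2.0.0 on GRCm38 (mm10), and Seurat 4.0.3 and Signac 1.3.0 are also named in the submitters' processing notes. The deposited matrix holds counts without normalization, with UMIs per gene and transposase cut counts per peak. The members and lists were chosen with earlier results of these data known.

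Nuclei were kept with 200 or more genes and 1000 to 50000 ATAC counts. RNA (30 principal components) and ATAC (latent semantic components 2 to 30) were corrected between libraries, which can also remove true differences, and clustered at resolution 0.8 (Seurat 5.3.0, R 4.3.3) without Hox features. Names required at least 3 raised markers. Scrublet (scanpy 1.11.5) called 3 doublets (0.022%) and so had not worked, and no doublets were removed. The study's mitochondrial limit could not be applied to these rows. Levels are CPM within a cluster of nuclei and library, and genes or peaks needed 50 UMIs or 200 ATAC counts over all nuclei. Intervals are exact Poisson, on pairs of counts for ATAC since 82.5% of entries were even, and Clopper-Pearson for shares. Depth limits Hox levels to a few UMIs in small clusters. A feature was called when its ratio to all other nuclei was at least 2, or at most 0.5, in both libraries, a rule tested on simulated data. Every Hox gene with 50 UMIs was named, with the 3 peaks of most counts and the 3 of largest HSC-like ratio in each Hox cluster. The annotation (GENCODE) matched 99.6% of gene IDs, and promoter sequence is from RefSeq on GRCm38.p6, with 24 promoters for 22 Hox genes. Some members, list genes and peaks that these rules would name are not reported here, in the text or in the drawing of peaks.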

Additional observations from a re-analysis of the deposited data

How the results depend on the processing

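No paired analysis was possible because the matrix pools both samples and no result came from a test. Among the values that answer a comparison, 72 stayed within their spread or within 1.5 times under an alternative and 38 moved. For single named genes and peaks, most of them not called, 432 values stayed on the same side of the call threshold, 17 calls were gained, 6 were lost and 0 reversed. Many of the 432 could not change, since the settings on minimum counts and on the margin could not alter the calls of these genes and peaks. A reversal was counted only where the main setting had a call, and no named peak had one in the HSC-like cluster. The tally is therefore no measure of how firm the calls are. The causes were not tested beyond what each alternative changes by construction.

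HoxA RNA in the HSC-like cluster (86.3 CPM) became 166 without the 3 ribosomal genes in the totals, 130 at resolution 0.4, 153 at resolution 1.2, 143 with Hox features kept in clustering, 127 in library 1 alone and 56.7 in library 2 alone, so that it passed the MPP-like level of the same setting at resolution 1.2 (130) and with Hox features kept (136). In the MPP-like cluster (133) it became 245 without the ribosomal genes, 152 with at least 500 genes per nucleus, 174 in library 1 alone and 95.3 in library 2 alone. The share of HSC-like nuclei with a HoxA UMI (8.04%) became 11.9% at resolution 0.4, 14.6% at 1.2, 13.5% with Hox features kept, 11.2% in library 1, 5.89% in library 2 and 12.3% unthinned, and the MPP-like share (12.2%) became 15%, 9.78% and 18.7% in library 1, library 2 and unthinned.

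Hox genes called higher in the HSC-like cluster (2) became 0 with at least 500 genes per nucleus, 1 in library 2 alone, 1 at 3-fold and 4 with a minimum of 20 UMIs. With that lower minimum more Hox genes were tested than with the main minimum of 50 UMIs, so the count of 4 is out of a larger set. Hox peaks called higher in the HSC-like cluster (0) became 2 at resolution 0.4, 1 at resolution 1.2, 1 without correction between libraries, 3 in library 1 alone and 2 at 1.5-fold. In the MPP-like cluster Hox peaks called higher (2) became 1 with at least 500 genes, 1 without correction, 1 with Hox features kept, 0 without the top 8% of doublet scores, 4 in library 1 alone, 7 at 1.5-fold and 0 at 3-fold. NeuP-like peaks called lower (43) became 74 in library 1 alone, 75 at 1.5-fold and 23 at 3-fold. Shares of all genes or peaks called were computed under the main rule only, so the counts under alternatives have no background to be read against. Resolution 0.4 had no MPP-like cluster and so gave no value for it, and limits on halved ATAC counts used only nuclei that passed both limits.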
